A study of Mus musculus with 8 samples.

Results

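Cxcl9 and Cxcl10, which encode chemokines, and Cxcr3, which encodes their shared receptor, were followed through the cells of transplanted mouse lungs. The genes were chosen by name, as ligands and receptor of 1 signaling axis without being all of its ligands, and all 3 were found among the 17921 genes of the count table. Single cells came from 8 orthotopic left lung grafts taken 1 month after transplantation, 1 library per graft and mouse. In 5 mice, labelled B6B6, donor and recipient were C57BL/6 (B6). In 3 mice, labelled HLAB6, the donor was of the strain Tg(HLA-A2.1)1Enge/J on C57BL/6, whose cells carry a transgene of human HLA-A2, and the recipient was B6; the labels name this pairing as the model of bronchiolitis obliterans syndrome (BOS), the airway form of chronic lung rejection. Every mouse was male and received no immunosuppression. The sources used here do not give the promoter of the transgene, and the labels of cells do not separate donor from recipient cells.

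CXCL9 and CXCL10 are small secreted proteins that interferon (IFN)-γ induces in macrophages, dendritic cells, endothelium, and fibroblasts. They guide cells that carry CXCR3, mainly activated and memory T cells, natural killer (NK) cells, and some B cells and plasma cells (PCs), into inflamed tissue, and the axis is a known feature of rejecting organ grafts. IFN-γ acts through its receptor (Ifngr1 and Ifngr2), the kinases JAK1 and JAK2, and transcription factors that include IRF1; type I IFN and NF-κB also act on the Cxcl10 gene, and the transcription factor T-bet (Tbx21) acts on Cxcr3.

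Cxcl9 (ENSMUSG00000029417, chr5:92321347-92328079) and Cxcl10 (ENSMUSG00000034855, chr5:92346638-92348889) lie on the minus strand of GRCm38 with 18558 bases between them. Cxcr3 (ENSMUSG00000050232, chrX:101731535-101734269) also lies on the minus strand. Each ligand gene has 4 exons, and Cxcr3 has 2. The 250 bases before each RefSeq start site are shown because the pathways named above are known to act there, and because their other targets were read beside these genes. They are RefSeq sequence of GRCm38.p6, written 5′ to 3′ along the gene's strand. The RefSeq start of Cxcr3 differs from that of the annotation used for the gene's coordinates, so 122 bases of its window lie inside the gene as given above. Capitals mark matches to the letters of an IFN-stimulated response element (ISRE: GAAA, any 2 bases, GAAA), an NF-κB site (GGG, any 5 bases, CC), and a T-box site (TCACACNT), read on both strands.
Cxcl9, chr5:92328080-92328329: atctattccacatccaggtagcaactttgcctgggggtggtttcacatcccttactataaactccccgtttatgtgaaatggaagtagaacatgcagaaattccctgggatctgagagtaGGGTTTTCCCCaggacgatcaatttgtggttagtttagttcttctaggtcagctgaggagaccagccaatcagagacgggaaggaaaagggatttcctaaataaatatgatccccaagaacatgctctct
Cxcl10, chr5:92348890-92349139: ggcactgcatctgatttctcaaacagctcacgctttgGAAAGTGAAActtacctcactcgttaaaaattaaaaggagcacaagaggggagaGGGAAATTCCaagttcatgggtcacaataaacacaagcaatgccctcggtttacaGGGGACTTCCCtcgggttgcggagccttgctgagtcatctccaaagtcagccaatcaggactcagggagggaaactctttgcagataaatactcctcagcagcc
Cxcr3, chrX:101734148-101734397: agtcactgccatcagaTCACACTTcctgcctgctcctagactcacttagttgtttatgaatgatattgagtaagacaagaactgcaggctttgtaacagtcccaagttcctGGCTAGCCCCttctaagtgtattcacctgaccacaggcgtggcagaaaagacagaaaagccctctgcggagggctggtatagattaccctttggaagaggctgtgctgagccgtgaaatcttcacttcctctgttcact
The ISRE letters occurred in the Cxcl10 window, 213 to 204 bases before the start, and in 2.98% of all 32851 promoter windows of that length. The T-box letters occurred in the Cxcr3 window and in 2.95% of all windows. The loose NF-κB letters occurred in all 3 windows, with overlapping matches in both ligand windows, and in 45.8% of all windows. The letters of a γ-activated site (GAS, TTCNNNGAA), a motif of IFN-γ responses, were in 7.02% of all windows and in none of these 3 windows. Cxcl10 also held the letters TGANTCA of an AP-1 site, which 6.75% of all windows hold. These are matches of letters and say nothing of binding.

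The libraries held between 868 and 6544 cells, 20778 in all, with totals of 1669076 to 12445769 unique molecular identifiers (UMIs, 1 per transcript molecule) and medians of 1356 to 1948 UMIs per cell. Cell barcodes were shared between libraries: 5 of the 28 pairs of libraries shared them at 5 or more times the median rate, all within B6B6 mice 1, 2, and 3 and HLAB6 mouse 2. These libraries are called linked here, and values are also given without the 793 cells whose barcode could not be assigned to 1 mouse. All 3 Cxcl9 UMIs of B6B6 mouse 1 and 19 of the 43 of B6B6 mouse 2 were in cells left out in this way, against 18 of the 840 of HLAB6 mouse 2. Levels are UMIs of a gene scaled to 1000000 UMIs (CPM) of the named cells in 1 mouse, and a mouse entered with at least 10 cells. Nothing in the labels goes beyond 1 mouse per library, so the spread between mice includes technical spread between libraries.

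Some of the authors' labels of cells went against marker genes. In cells labelled alveolar macrophage, the summed level of 7 alveolar macrophage markers was 9804 to 12312 CPM in the 5 B6B6 mice and 3803, 343, and 4437 CPM in the 3 HLAB6 mice. The label is therefore used as a label only, and every value under it below carries this difference. Structural clusters 1 and 2, named epithelial by the authors, held 6 endothelial markers at 10612 and 15452 CPM and 5 epithelial markers at 1157 and 262 CPM, so they are called by number. Structural clusters 4 and 10 consisted of cells with 686220 and 352240 CPM of 3 red blood cell markers, and structural cluster 6 was named T cells by the authors. Red blood cell markers took 50774 to 526390 CPM of the structural cells of B6B6 mice and 57169 to 410480 CPM in HLAB6 mice, and these ranges overlapped. Structural results are thus also given without clusters 4, 6, and 10.

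Cxcl9 was the more abundant ligand, with 1252 UMIs in 324 cells against 368 UMIs of Cxcl10 in 160 cells. In whole grafts, Cxcl9 stood at 1.80, 14.9, 6.48, 1.48, and 0 CPM in B6B6 mice 1 to 5, and at 22.7, 91.4, and 15.5 CPM in HLAB6 mice 1 to 3. Every HLAB6 graft was above every B6B6 graft, with HLAB6 mouse 2 far above the rest and B6B6 mouse 2 close to HLAB6 mouse 3. The means were 4.94 ± 6.10 (SD, n = 5) and 43.2 ± 41.9 (SD, n = 3) CPM, a log2 fold change of 3.25 ± 0.86 (SE) with an adjusted p of 0.334 by edgeR's quasi-likelihood test, and the exact permutation test over mice gave p = 0.0357 (two-sided), the smallest value its 56 splits allow. In whole grafts, 1.2% of genes with at least 10 UMIs were higher in every HLAB6 mouse than in every B6B6 mouse, and edgeR called 0.0% of the genes it tested, although 815 of 11584 had an unadjusted p under 0.05 and DESeq2 called 119. In such sums, more cells of a type and more RNA per cell cannot be told apart.

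Alveolar macrophages by label held 63.8% of all Cxcl9 UMIs, myeloid cells 17.7%, structural cells 9.1%, and monocytes 7.9%. The split differed between mice: macrophages held 75.2% of Cxcl9 in HLAB6 mouse 2 but 31.1% in HLAB6 mouse 1, where structural cells held 26.9%. T cells, which are not known as a source of Cxcl9, held 5 UMIs in 5071 cells, and B cells held 8, all in HLAB6 mouse 2. No Cxcl9 UMI was counted in 172 plasma cells, 85 mast cells, or 32 type 2 pneumocytes.

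**Figure D1:**
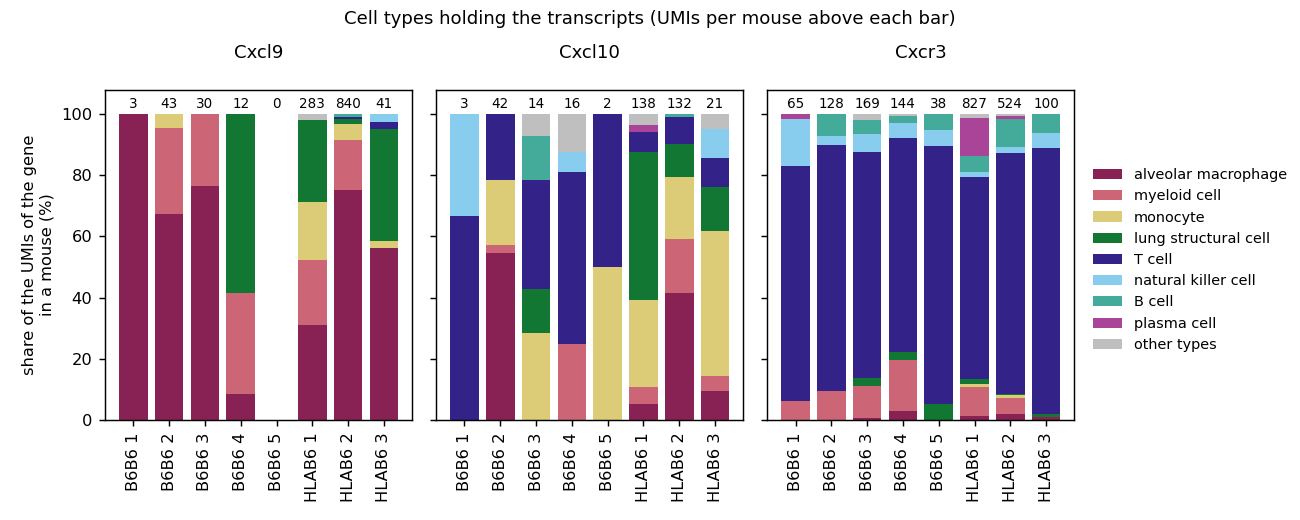
Share of the UMIs of each gene, in percent, by labelled cell type (colors) in each mouse, with the number of UMIs above each bar. Cxcl9 UMIs sat mainly in macrophages, myeloid cells, and structural cells, Cxcl10 UMIs were spread over more types, and T cells held 73.0% of Cxcr3 UMIs over all mice.

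By mean level over mice, Cxcl9 was ordered alveolar macrophages (52.1 ± 55.95 CPM, SD, n = 8), myeloid cells (46.5 ± 78.5), monocytes (13.7 ± 27.4), and structural cells (8.26 ± 10.8). Macrophages exceeded myeloid cells in 4 of 8 mice, so these neighbors did not differ beyond their spread, nor did monocytes and structural cells, of which monocytes were higher in 2 of 8 mice. The share of cells with a Cxcl9 UMI was 7.74% of macrophages (95% exact binomial interval 6.72 to 8.86), 5.70% of myeloid cells, 0.943% of structural cells (0.705 to 1.23), and 0.0986% of T cells (0.0320 to 0.230). Median depth was 2791.5 UMIs in macrophages, 1126.5 in structural cells, and 1648 in T cells. At a fixed 500 UMIs per cell, these shares were 2.82%, 2.23%, 0.530%, and 0.0256%. The share in structural cells lay above the interval of T cells, which serve as background here, at a lower median depth. The intervals cover counting error only.

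In cells labelled alveolar macrophage, Cxcl9 was at 9.89, 60.5, 46.8, 0.450, and 0 CPM in the B6B6 mice and at 62.5, 172, and 64.3 CPM in the HLAB6 mice. The HLAB6 mice were all higher, but B6B6 mice 2 and 3 came close to HLAB6 mice 1 and 3. The mean went from 23.5 ± 28.2 (SD, n = 5) to 99.6 ± 62.7 CPM (SD, n = 3), a log2 fold change of 2.58 ± 0.90 (SE) that did not pass edgeR's test (adjusted p = 0.0831), where 12.3% of tested genes passed. The exact permutation test of the difference in mean CPM gave p = 0.0357, and 4.29% of genes under this label were separated in the same direction. Without the cells of shared barcodes, the log2 fold change was 3.23 and the edgeR adjusted p was 0.0299. In whole grafts, that step took out 3 of 3 Cxcl9 UMIs of B6B6 mouse 1 and 19 of 43 of B6B6 mouse 2. It took out 18 of 840 in HLAB6 mouse 2. DESeq2 did not call the gene under this label, with values given below among the alternatives. With the linked libraries as a block, the log2 fold change was 3.41 and the edgeR adjusted p was 0.00208.

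The macrophage markers also differed between cells with and without Cxcl9 in the HLAB6 mice. In HLAB6 mouse 1, the 31 cells with a Cxcl9 UMI held the 7 alveolar macrophage markers at 658 CPM and the other cells at 4117 CPM. HLAB6 mouse 3 had 382 CPM in 7 cells with Cxcl9 and 4656 CPM in the rest. In HLAB6 mouse 2, where these markers were lowest, the values were 313 and 355 CPM. B6B6 mouse 2 went the other way, with 15999 CPM in 18 cells with Cxcl9 and 9939 CPM in the rest. The 6 monocyte markers stood at 1285 CPM in cells with Cxcl9 and 653 CPM in the others in HLAB6 mouse 1, and at 1133 and 896 CPM in HLAB6 mouse 2, which gave 131 of all 193 such cells. They were at 491 and 537 CPM in HLAB6 mouse 3 and at 140 and 549 CPM in B6B6 mouse 2, so the direction differed between mice. The 7 dendritic cell markers stayed between 5.60 and 29.7 CPM under this label. The part of this marker difference in the Cxcl9 result was not tested.

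**Figure D2:**
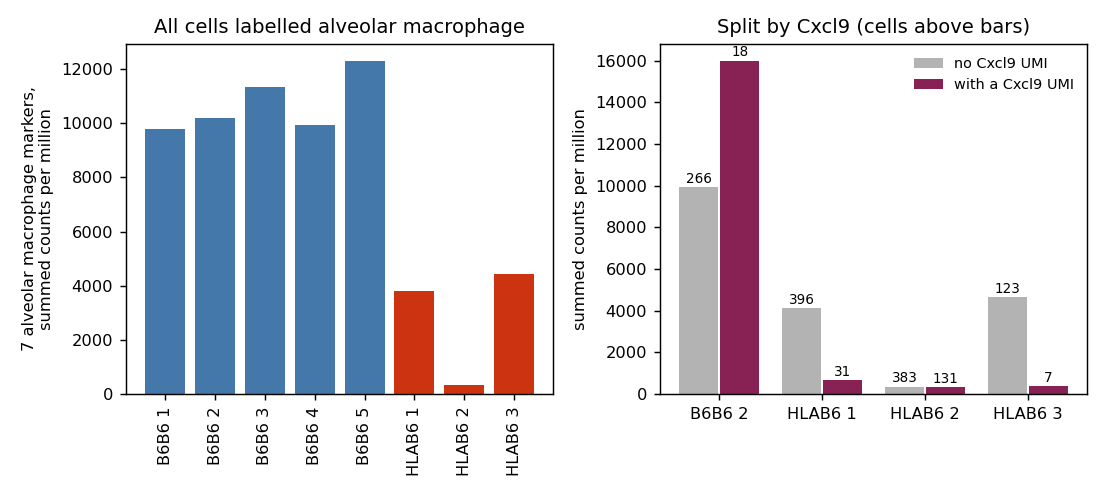
Summed level of 7 alveolar macrophage markers, in CPM, in cells labelled alveolar macrophage: left, in each mouse (B6B6 blue, HLAB6 red); right, in cells without (gray) and with (purple) a Cxcl9 UMI in the 4 mice with at least 7 such cells, numbers of cells above bars. All HLAB6 mice lie below all B6B6 mice, and cells with Cxcl9 lie below the others in HLAB6 mice 1 and 3 but above them in B6B6 mouse 2.

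In cells labelled myeloid, Cxcl9 was at 0, 38.9, 22.3, 4.74, and 0 CPM in B6B6 mice and at 77.0, 229, and 0 CPM in HLAB6 mice. HLAB6 mice 1 and 2 were above every B6B6 mouse, and HLAB6 mouse 3, with 32 myeloid cells, had none. The means were 13.2 ± 17.0 (SD, n = 5) and 102 ± 117 CPM (SD, n = 3), with a log2 fold change of 2.88 ± 0.80 (SE) and an edgeR adjusted p of 0.323. Under this label, edgeR called 0.0% of genes, with 215 of 4395 at an unadjusted p under 0.05 and 25 called by DESeq2. In the same cells, 6 endothelial markers were at 19.4 to 87.8 CPM in B6B6 mice and at 109 to 1446 CPM in HLAB6 mice, and their part in the result was not tested; dendritic cell markers were at 1239 CPM in myeloid cells with Cxcl9 and 1186 CPM in those without.

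Monocytes showed Cxcl9 at 0, 6.25, 0, 0, and 0 CPM in B6B6 mice and at 20.8, 79.2, and 3.38 CPM in HLAB6 mice. The groups overlapped through 1 UMI in HLAB6 mouse 3 and 2 UMIs in B6B6 mouse 2 (exact permutation test, p = 0.0714). Without cells of shared barcodes they no longer overlapped, as 2.78% of monocyte genes did not among all cells, and the exact permutation test gave p = 0.0357. The 10 monocytes with the most Cxcl9 held 89.9% of its 99 UMIs.

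Structural cells gave the 1 call of an axis gene, and the gene entered that test through the HLAB6 mice alone. No B6B6 mouse reached the level that edgeR's filter asks of as many mice as the smaller group holds. Whether the gene was tested at all thus depended on the group in which it was high. Cxcl9 was at 0, 0, 0, 3.68, and 0 CPM in structural cells of B6B6 mice and at 27.0, 17.8, and 17.7 CPM in those of HLAB6 mice. A single B6B6 mouse, number 4, had any Cxcl9 UMI in structural cells, and the 3 HLAB6 mice lay close together above it. The mean rose from 0.737 ± 1.65 (SD, n = 5) to 20.8 ± 5.32 CPM (SD, n = 3), a log2 fold change of 3.78 ± 0.65 (SE) with an edgeR adjusted p of 0.0263, and the pooled level was 13.9-fold higher. In structural cells, edgeR called 0.604% of all tested genes, made up of 0.419% higher and 0.185% lower in HLAB6, and 1.02% of genes with at least 10 UMIs were higher in every HLAB6 mouse. Without structural clusters 4, 6, and 10, the levels were 0, 0, 0, 5.12, and 0 against 30.8, 20.9, and 40.5 CPM, and the call held (log2 fold change 3.72, edgeR adjusted p = 0.0161). It rested on 114 UMIs, of which the 10 cells with the most held 60.5%. The call was lost without B6B6 mouse 2, 3, or 4 or without any 1 HLAB6 mouse, with edgeR adjusted p values of 0.0646, 0.0557, 0.0670, 0.148, 0.0811, and 0.0524 in the order of the mice. The makeup of the structural cells also differed between mice. Cluster 0 held 204, 39, 336, 71, and 18 cells in B6B6 mice and 1225, 375, and 96 in HLAB6 mice. All structural cells numbered 323, 134, 744, 1137, and 103 against 1998, 696, and 379. Cluster 2 held 34, 31, 185, 170, and 18 against 14, 52, and 25 cells. The part of this makeup in the call was not tested.

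Cxcl9 was seen in several structural clusters, and not in the same ones in each HLAB6 mouse. In cluster 0, endothelial cells with major histocompatibility complex class II (MHC II) genes, it was 0 in all B6B6 mice and 23.8, 27.2, and 0 CPM in the HLAB6 mice. In cluster 1, it was 8.77 CPM in B6B6 mouse 4, 0 in the other B6B6 mice, and 28.9, 20.9, and 16.0 CPM in the HLAB6 mice. The groups did not overlap there (exact permutation test, p = 0.0357), as for 3.39% of genes of that cluster. In cluster 3, fibroblasts and smooth muscle by the authors' name, HLAB6 mice 1 and 2 stood at 67.4 and 68.1 CPM, with 16 UMIs in a single cell, and HLAB6 mouse 3 and the B6B6 mice at 0. In HLAB6 mouse 3, a single cell of cluster 2 held 12 of the 15 structural Cxcl9 UMIs. No Cxcl9 UMI was counted in cluster 8, the cluster led by epithelial markers. Of the 52 structural cells with a Cxcl9 UMI, 22 were in cluster 0, 17 in cluster 1, and 4 in cluster 3. These clusters held 2364, 1347, and 345 of all 5514 structural cells.

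**Figure D3:**
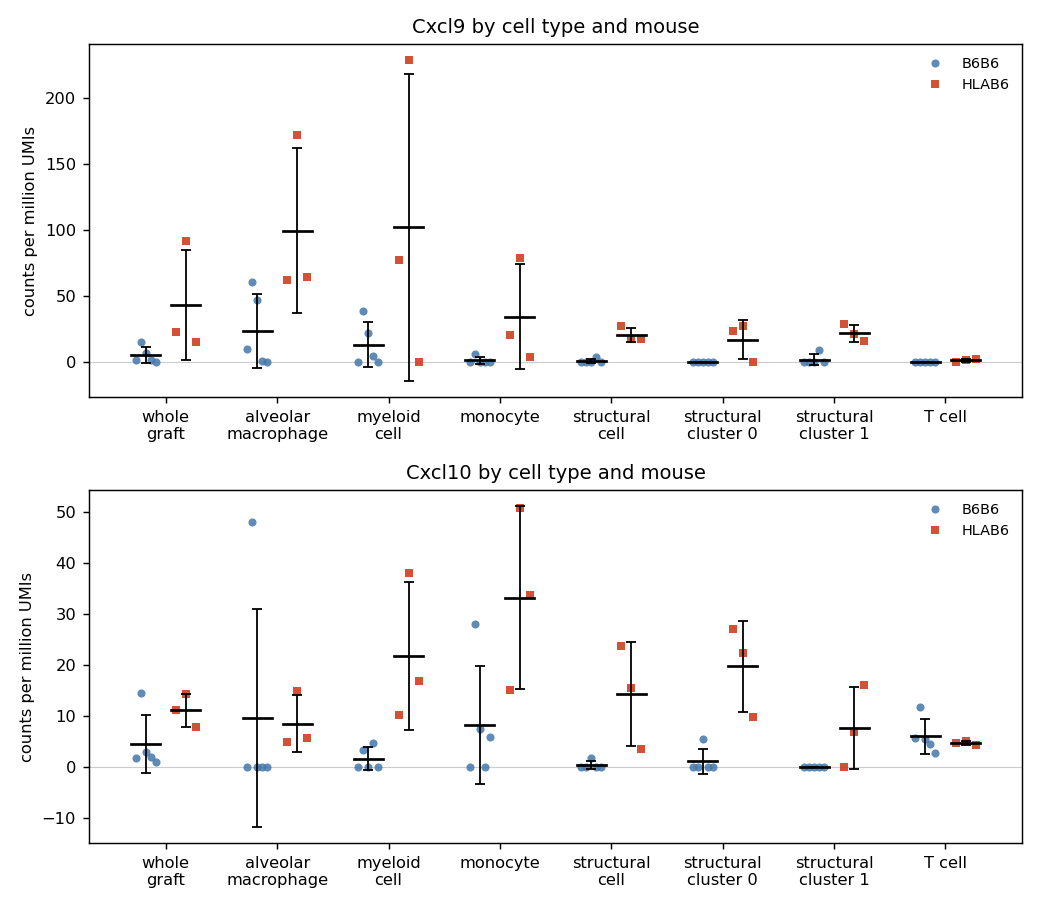
Levels of Cxcl9 (top) and Cxcl10 (bottom) in CPM by labelled cell type and structural cluster; points are mice (B6B6 circles, HLAB6 squares), and bars are the mean ± SD. Cxcl9 in structural cells was 17.7 to 27.0 in HLAB6 mice and at most 3.68 in B6B6 mice, while Cxcl10 in T cells lay between 2.68 and 11.8 in both groups.

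Cxcl10 levels overlapped between the groups in whole grafts and did not overlap in structural cells. Its level in whole grafts was 1.80, 14.6, 3.02, 1.97, and 0.921 CPM in B6B6 mice and 11.1, 14.4, and 7.92 CPM in HLAB6 mice. B6B6 mouse 2 was as high as the highest HLAB6 mouse, and the other B6B6 mice were lower than all HLAB6 mice. The means were 4.46 ± 5.72 (SD, n = 5) and 11.1 ± 3.22 CPM (SD, n = 3), with a log2 fold change of 1.47 ± 0.68 (SE) and an edgeR adjusted p of 0.740. Monocytes held 24.5% of Cxcl10 UMIs, alveolar macrophages 23.6%, structural cells 23.4%, T cells 13.3%, and myeloid cells 10.1%. Structural cells held 2.6% of the Cxcl10 UMIs of B6B6 mice and 28.9% of those of HLAB6 mice, and T cells 33.8% and 7.9%.

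In structural cells, Cxcl10 was at 0, 0, 1.75, 0, and 0 CPM in B6B6 mice and at 23.8, 15.5, and 3.54 CPM in HLAB6 mice. The groups did not overlap, as for 1.02% of genes in these cells, although HLAB6 mouse 3 rested on 3 UMIs. The means were 0.349 ± 0.780 (SD, n = 5) and 14.3 ± 10.2 CPM (SD, n = 3), and the exact permutation test gave p = 0.0357; the gene had too few counts for edgeR. Without clusters 4, 6, and 10, the levels were 0, 0, 1.98, 0, and 0 against 27.8, 18.3, and 8.67 CPM. MHC II+ endothelial cluster 0 held 52 of the 86 structural Cxcl10 UMIs, at 0, 0, 5.43, 0, and 0 CPM in B6B6 mice and 27.2, 22.3, and 9.85 CPM in HLAB6 mice (exact permutation test, p = 0.0357). It was also the largest cluster, with 2364 of 5514 structural cells. In HLAB6 mice 1 to 3, it held 40 of 67, 9 of 14, and 1 of 3 structural Cxcl10 UMIs. Its cells there were 1225 of 1998, 375 of 696, and 96 of 379 structural cells. In that cluster, 2.9% of genes were separated in the same direction. A further 17 UMIs were in fibroblasts of cluster 3 of HLAB6 mice 1 and 2, at 40.4 and 68.1 CPM, and 11 were in Vcam1+ endothelial cluster 5 of HLAB6 mouse 1. Clusters 1 and 2 held 3 and 1.

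Monocytes led the order of Cxcl10 at 17.6 ± 18.3 CPM (SD, n = 8), ahead of mast cells (17.1 ± 29.6, n = 3, from 5 UMIs), alveolar macrophages (9.19 ± 16.5, n = 8), and myeloid cells (9.15 ± 13.1). None of these neighbors differed beyond its spread. In monocytes, Cxcl10 was at 0, 28.1, 7.45, 0, and 5.84 CPM in B6B6 mice and at 15.0, 50.9, and 33.8 CPM in HLAB6 mice. The groups overlapped through B6B6 mouse 2 (8.28 ± 11.6 against 33.2 ± 17.9 CPM, exact permutation test, p = 0.0714). Myeloid cells did not overlap, at 0, 3.24, 0, 4.74, and 0 against 10.3, 38.2, and 16.8 CPM (exact permutation test, p = 0.0357), as for 3.01% of genes under that label, but they held 37 Cxcl10 UMIs in all. Alveolar macrophages had 48.0 CPM in B6B6 mouse 2, 0 in the other B6B6 mice, and 4.97, 15.0, and 5.60 CPM in HLAB6 mice, and no difference was detectable (exact permutation test, p = 0.786).

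T cells held Cxcl10 in all 8 mice, at 5.70, 11.8, 5.42, 4.45, and 2.68 CPM in B6B6 mice and 4.75, 5.10, and 4.24 CPM in HLAB6 mice, with overlapping groups (exact permutation test, p = 0.643). These 49 UMIs lay in 38 cells, and none of those cells held a Cxcl9 UMI. In other types, some cells held both ligands. Of cells with a Cxcl10 UMI, Cxcl9 was found in 13 of 20 alveolar macrophages (65.0%, against 7.74% of all cells of that label), 5 of 14 myeloid cells (35.7% against 5.70%), 9 of 31 monocytes (29.0% against 0.915%), and 6 of 41 structural cells (14.6% against 0.943%). Cells with either ligand were deeper than the others in alveolar macrophages, monocytes, and myeloid cells, so these shares are a description.

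Cxcr3 was the most widely detected of the axis genes, with 1995 UMIs in 1291 cells, and T cells held 73.0% of them. In whole grafts, Cxcr3 was at 38.9, 44.5, 36.5, 17.8, and 17.5 CPM in B6B6 mice and at 66.4, 57.0, and 37.7 CPM in HLAB6 mice. HLAB6 mice 1 and 2 were the highest, and HLAB6 mouse 3 lay within the B6B6 range. The log2 fold change was 0.95 ± 0.30 (SE), with an edgeR adjusted p of 0.412. Myeloid cells held 8.3% of Cxcr3 UMIs, B cells 6.0%, plasma cells 5.5%, and NK cells 3.2%. By mean level over 8 mice, the order was T cells (150 ± 71.3 CPM, SD), myeloid cells (39.9 ± 32.7), NK cells (39.0 ± 14.2), and B cells (23.8 ± 28.0). Plasma cells, with enough cells in HLAB6 mice 1 and 2 alone, had a mean of 60.4 ± 50.1 CPM (SD, n = 2) and were below the myeloid cells in both of these mice. Myeloid cells exceeded NK cells in 4 of 8 mice, and NK cells exceeded B cells in 6 of 8. Structural cells, alveolar macrophages, and monocytes stood at 2.42, 2.06, and 1.52 CPM.

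**Figure D4:**
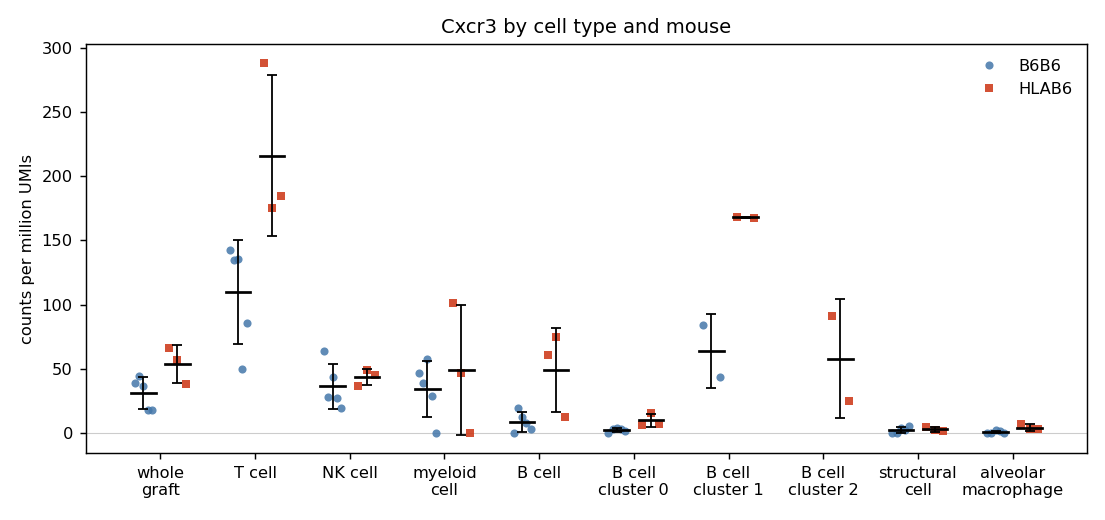
Levels of Cxcr3 in CPM by labelled cell type and B cell cluster; points are mice with at least 10 cells of the type (B6B6 circles, HLAB6 squares), and bars are the mean ± SD. T cells of HLAB6 mice (175 to 288) lay above those of B6B6 mice (49.97 to 143), while NK cells overlapped.

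In T cells, Cxcr3 was at 143, 135, 136, 49.97, and 85.9 CPM in B6B6 mice and at 288, 175, and 184 CPM in HLAB6 mice. All HLAB6 mice were above all B6B6 mice, and HLAB6 mouse 1 was the highest. The mean went from 110 ± 40.4 (SD, n = 5) to 216 ± 62.9 CPM (SD, n = 3), a log2 fold change of 0.96 ± 0.30 (SE) that did not pass edgeR's test over all genes (adjusted p = 0.343), which 0.0698% of tested genes passed. The exact permutation test gave p = 0.0357, and 3.8% of T cell genes were separated in the same direction. A Cxcr3 UMI was found in 18.9% of T cells (95% exact interval 17.9 to 20.04), and in 7.41% at 500 UMIs per cell. Alveolar macrophages and structural cells, taken here as background for the receptor, had 0.195% and 0.145% at that depth. Of the 22 structural cells with a Cxcr3 UMI, 12 were in structural cluster 6, which the authors named T cells. Structural clusters 0 and 1 had 0.0693% and 0.141% at 500 UMIs per cell. The level in alveolar macrophages was 0, 0, 2.03, 1.80, and 0 CPM in B6B6 mice and 7.11, 2.72, and 2.80 CPM in HLAB6 mice (exact permutation test, p = 0.0357), at most 10 UMIs a mouse, under a label in which 4.29% of genes were separated in this direction and the macrophage markers differed between the groups.

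Within T cells, cells were divided by a UMI of the coreceptor genes Cd8a and Cd4, of Foxp3, which marks regulatory T cells, or of Trdc, a γδ T cell receptor gene. Cells with both Cd8a and Cd4 were left out of the classes of these 2 genes. In B6B6 mouse 4, the classes held 36.7%, 10.3%, 0.748%, 1.84%, and 37.1% of T cells, so more fell outside them than in any other mouse. Cells with Cd8a and no Cd4 had Cxcr3 at 90.2 ± 38.5 CPM (SD) in 5 B6B6 mice and 178 ± 57.6 CPM in 3 HLAB6 mice (exact permutation test, p = 0.0714). B6B6 mouse 4 was the lowest there, at 37.1 CPM. Its cells of this class had a median of 893.5 UMIs, against 2513 to 3223 in the other B6B6 mice. The part of this mouse in the difference was not tested. Cells with Cd4 and no Cd8a had 137 ± 38.05 and 278 ± 136 CPM (exact permutation test, p = 0.107), and cells with none of the 4 genes had 124 ± 52.2 and 225 ± 38.2 CPM (exact permutation test, p = 0.0357). Cells with Foxp3 reached 10 cells in 2 mice per group, at 120 ± 170 and 444 ± 107 CPM. Cells with Trdc and no Cd4 or Cd8a did so in 3 mice per group, at 46.0 ± 45.5 and 202 ± 65.7 CPM, where the exact permutation test could not go below p = 0.1. The mean of HLAB6 mice was higher in each of these classes, and in no class was the difference tested against that of another.

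NK cells showed no such separation. Their Cxcr3 was at 63.5, 27.8, 43.6, 27.2, and 19.3 CPM in B6B6 mice and at 36.6, 48.8, and 44.9 CPM in HLAB6 mice, with the HLAB6 mice inside the B6B6 range (exact permutation test, p = 0.536). In myeloid cells, it was at 47.0, 38.9, 57.3, 28.5, and 0 CPM in B6B6 mice and at 101, 46.5, and 0 CPM in HLAB6 mice. The log2 fold change of 0.73 ± 0.59 (SE; edgeR adjusted p = 0.999) turned to -0.17 without HLAB6 mouse 1. T cell markers under the myeloid label were at 317 to 5930 CPM in B6B6 mice and 50.4 to 1205 CPM in HLAB6 mice. In the same order of groups, NK cell markers were at 0 to 433 and 16.8 to 189 CPM. B cell markers were at 47.0 to 434 and 269 to 2725 CPM, and plasma cell markers at 78.3 to 317 and 179 to 1362 CPM. The part of these markers in the Cxcr3 value was not tested.

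In B cells, Cxcr3 was at 0, 19.5, 12.3, 7.89, and 3.05 CPM in B6B6 mice and at 60.3, 74.9, and 12.3 CPM in HLAB6 mice. HLAB6 mice 1 and 2 stood above every B6B6 mouse, and HLAB6 mouse 3 was level with B6B6 mouse 3. The means were 8.55 ± 7.70 (SD, n = 5) and 49.2 ± 32.7 CPM (SD, n = 3), with a log2 fold change of 2.33 ± 0.53 (SE) and an edgeR adjusted p of 0.230, where 0.117% of tested B cell genes passed. The makeup of the B cells moved with this difference: cluster 1 of the B cells, described next, held 5, 20, 22, 8, and 6 cells in B6B6 mice and 74, 70, and 5 in HLAB6 mice, beside 58, 240, 370, 237, and 358 against 408, 324, and 291 cells labelled B cell. Its part in the result was not tested. The share of B cells with a Cxcr3 UMI was 0.923% at 500 UMIs per cell. The difference in the group effect between T cells and B cells was -0.60 on the log2(CPM + 10) scale and was not resolved (exact permutation test, p = 0.429). Its size depended on the scale, with -1.62 on log2(CPM + 1) (exact permutation test, p = 0.214).

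Among the B cell clusters, the study picked Cxcr3 from these same cells as a gene of cluster 1, so its level there is a description. Cluster 1 held 97 Cxcr3 UMIs in 210 cells, cluster 2, the plasma cells, held 103 in 172 cells, cluster 0 held 17 in 1895 cells, and cluster 3 held 2 in 157 cells. In the mice with at least 10 cells, cluster 1 stood at 83.8 and 43.2 CPM (B6B6 mice 2 and 3) and at 168 and 168 CPM (HLAB6 mice 1 and 2). Its log2 fold change was 1.38 ± 0.44 (SE), with an edgeR adjusted p of 0.350, and with 2 mice per group 21.8% of genes were separated in this direction. In this cluster, edgeR called 0.0% of genes, with 220 of 2206 at an unadjusted p under 0.05 and 3 called by DESeq2. Cluster 0 was at 0, 2.71, 3.60, 3.11, and 1.67 CPM in B6B6 mice and 6.39, 15.8, and 7.18 CPM in HLAB6 mice. These groups did not overlap (exact permutation test, p = 0.0357), as for 1.58% of genes of that cluster, but they rested on 17 UMIs. Cells labelled plasma cell, a set that differs slightly from cluster 2, reached 10 cells in HLAB6 mice 1 and 2 alone, with Cxcr3 at 95.8 and 25.0 CPM, and 54 of all 172 plasma cells held a UMI at a median depth of 7942.5 UMIs.

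Bhlhe41, which encodes a transcription factor, and Itgb1, which encodes the β1 integrin chain, are among the study's other genes of cluster 1. In HLAB6 mice 1 and 2, cluster 1 held Bhlhe41 at 308 and 196 CPM and Itgb1 at 328 and 176 CPM. In B6B6 mice 2 and 3, Bhlhe41 was at 192 and 173 CPM and Itgb1 at 47.9 and 187 CPM. In plasma cell cluster 2 of HLAB6 mice 1 and 2, Bhlhe41 was at 54.9 and 66.7 CPM, and Itgb1 was at 33.1 and 37.5 CPM. In the same mice, Cxcr3 in cluster 2 was at 90.9 and 25.0 CPM.

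Over the 10 comparisons in which an axis gene had enough counts for edgeR, all 10 log2 fold changes were positive, 8 had an unadjusted p under 0.05, and 1 had an adjusted p under 0.05. These 10 are not independent, since whole grafts hold the cells of every type. Cxcl9 in structural cells passed the filter through HLAB6 mice alone. Comparisons that did not pass the filter went in both directions, with Cxcl10 lower in HLAB6 means in T cells and alveolar macrophages. The shared sign is therefore a description. Of all genes tested, an unadjusted p under 0.05 was found in 7.04% in whole grafts, 8.34% in structural cells, 7.45% in T cells, 29.1% in alveolar macrophages, 4.72% in B cells, 4.89% in myeloid cells, and 9.97% in B cell cluster 1. A further 44 comparisons of a gene with a type or cluster were tested by the exact permutation test alone, without adjustment, and 6 of them gave p under 0.05, all with HLAB6 mice above B6B6 mice, in sets of cells where 1.02% to 4.29% of genes were separated in that direction. Many of the 44 rest on few UMIs, and 19 had at least 10. Differences between types in the size of the group effect were small against their spread: for Cxcl9, the effect in macrophages less that in myeloid cells was 0.38 on the log2(CPM + 10) scale (exact permutation test, p = 0.714). Structural cells less macrophages gave -0.52 (exact permutation test, p = 0.643).

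**Figure D5:**
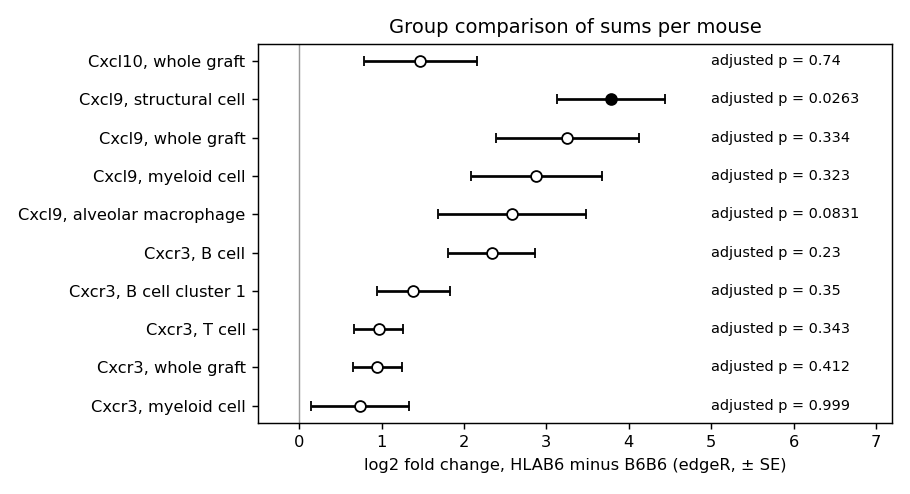
Log2 fold change of HLAB6 over B6B6 (± SE) of each axis gene in each set of cells with enough counts for edgeR, with adjusted p values; the filled point is the one under 0.05. All 10 points lie above 0, but they share cells and are not independent. Cxcl9 in structural cells is the filled one, and it passed the filter on counts through HLAB6 mice alone.

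Genes of IFN-γ signaling and its targets were then read in the same fits. In structural cells, 9 of the 14 tested IFN-γ targets rose and 0 fell, with a list median log2 fold change of 1.98 against -0.01 for all genes, beside 0.419% of all genes called as higher and 0.185% as lower. The largest rises were in the guanylate-binding protein gene Gbp3 (2.84 ± 0.44 SE, edgeR adjusted p = 0.0181), the serine protease inhibitor gene Serpina3g (2.48, edgeR adjusted p = 0.0213), and the immunity-related GTPase gene Iigp1 (2.31, edgeR adjusted p = 0.0263). Of 10 tested signaling genes, edgeR called 0 (3 at an unadjusted p under 0.05), and DESeq2 called 0. Irf1 was at 0.15 (adjusted p = 0.907), Ifngr1 at 0.11, and Ifngr2 at -0.37. Of other chemokine genes, Ackr3, which encodes a scavenging receptor for CXCL12, rose by a log2 fold change of 1.29 (edgeR adjusted p = 0.0413), and of type I IFN targets Ifit3 rose by 1.70 (edgeR adjusted p = 0.0308). It was the 1 call among 8 tested type I IFN targets, all of them positive, with a median log2 fold change of 0.87. The count of 9 fell to 1 without HLAB6 mouse 2 and went up to 13 without HLAB6 mouse 3. It was 6 without cells of shared barcodes and 2 with the replicate number as a block.

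In cells labelled alveolar macrophage, where 6.36% of all genes rose, 5.92% fell, and the marker difference above holds, 4 of 8 tested IFN-γ signaling genes and 6 of 9 targets rose and none fell. Among signaling genes, Irf1 rose by a log2 fold change of 1.37 (edgeR adjusted p = 0.0378), the IFN response factor gene Irf8 by 1.23 (0.0122), and Ifngr2 by 1.05 (0.0178). Among targets, Gbp3 rose by 3.29 (edgeR adjusted p = 0.0141), Gbp2 by 2.45 (0.0360), and Irgm1, another immunity-related GTPase gene, by 2.25 (0.0154). Cxcl16, which encodes the ligand of CXCR6, rose by 2.80 (edgeR adjusted p = 0.0369), and the type I IFN targets Oasl2 by 3.01 (0.0175) and Isg15 by 1.89 (0.0346). Of 4 tested type I IFN targets, 2 were called and all 4 were positive, with a median log2 fold change of 1.97. Il18, which encodes a cytokine that induces IFN-γ, fell by 2.03 (edgeR adjusted p = 0.0133), from 347 to 79.0 CPM. Without HLAB6 mouse 2, 0 of the IFN-γ targets passed.

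In whole grafts, T cells, B cells, and myeloid cells, 0 genes of these lists passed by edgeR, with 27 of 62, 13 of 41, 6 of 26, and 9 of 24 at an unadjusted p under 0.05, against 7.04%, 7.45%, 4.72%, and 4.89% of all genes. DESeq2 called 8 of 15 IFN-γ targets as higher in whole grafts, 1 of 5 in myeloid cells, and 0 in T cells and in B cells, where it called 0.501%, 0.501%, 0.349%, and 0.0167% of all genes as higher. Ifng itself, in T cells, was at 22.4 ± 12.0 CPM (SD, n = 5) in B6B6 mice and 54.4 ± 23.2 CPM (SD, n = 3) in HLAB6 mice, with a log2 fold change of 1.40 ± 0.35 (SE) and an edgeR adjusted p of 0.225. The groups overlapped there, since B6B6 mouse 1 (42.8 CPM) was above HLAB6 mice 1 and 3 (41.7 and 40.3 CPM). NK cells held more Ifng, with means of 136 ± 37.6 (SD, n = 5) and 101 ± 29.4 CPM (SD, n = 3), lower in HLAB6 mice with overlapping groups. In whole grafts it was 6.91 to 27.6 CPM in B6B6 mice and 10.8 to 24.8 CPM in HLAB6 mice. Ifngr2 in T cells had a log2 fold change of -1.62 (edgeR adjusted p = 0.161). All 14 tested IFN-γ targets in T cells and all 15 in whole grafts had positive log2 fold changes, with medians of 0.57 and 1.30 against -0.02 and -0.01 for all genes. Type I IFN targets went the same way. All 6 tested in T cells and all 11 in whole grafts were positive, with medians of 0.75 and 1.12.

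Across 69 sums of a cell type in a mouse, which share libraries and depth, the genes whose log2(CPM + 1) was most like that of Cxcl9 among 12739 genes were Tnfrsf11a (Pearson r = 0.72), Gatm, Il18bp, C1qc, and Ms4a7 (each 0.71). For Cxcl10 they were the type I IFN target Ifit1 (0.55), Cxcl9 (0.53), Papss2 (0.53), Abcc4 (0.53), and Zbp1 (0.52). For Cxcr3 they were T cell genes, Cd28 (0.79) and Lck (0.77), with Zcchc18 (0.77), Ptprcap (0.76), and Sh2d2a (0.76). Receptor and ligands were not alike over these sums, with r = 0.01 for Cxcr3 and Cxcl9 and 0.16 for Cxcr3 and Cxcl10. Tnfrsf11a encodes the receptor RANK, Il18bp a protein that binds interleukin-18, and C1qc a chain of complement C1q.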

How the data were processed

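Per the file headers and the study's methods, the authors deposited UMI counts per gene and cell, made by Cell Ranger on mm10 (GRCm38) without further normalization; barcodes with few UMIs and genes seen in few cells were left out and free RNA was removed by SoupX before deposit. Cell types and clusters are the authors' (Seurat, clustifyr). Cells were assigned to mice by the table of cells, whose HLAB6 mice 1, 2, and 3 match the sample titles but carry the numbers 2, 3, and 5 in the cell names, and 0 columns of values were left unused. The study tested clusters over cells by a Wilcoxon test; here counts were summed per mouse and type and compared by edgeR 4.0.16 (R 4.3.3; TMM, filterByExpr with a minimum count of 10, quasi-likelihood F test, Benjamini-Hochberg over all genes tested, threshold 0.05). Genes with too few counts were compared by the exact permutation test over mice (scipy 1.17.1, two-sided). For shares of cells, each cell was thinned to 500 UMIs in expectation, and 1204 shallower cells were left out. Doublets (258 cells by Scrublet in scanpy 1.11.5, expected rate 0.06) were kept, and left out as an alternative, as were cells of shared barcodes, cells under 500 UMIs, and each mouse. Other alternatives were DESeq2 1.42.0, no filter, RLE factors, 20 cells per mouse, and blocks. The fits were tested on simulated data.

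The axis genes, lists, and tests were chosen with earlier results of these data known. Genes named besides Cxcl9, Cxcl10, and Cxcr3 are the IFN-γ pathway genes Ifng, Ifngr1, Ifngr2, and Irf1, up to 3 rises and 3 falls per list, the 5 genes most alike each member, and the T and B cell genes above; Irf8, Ackr3, Ifit3, and Isg15 were named after their values were seen. Results without structural clusters 4, 6, and 10, and effects compared between other pairs of types, were added after the data were seen. Cxcl11 was not analysed here, and some genes that the naming rule gives are not reported here.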

Additional observations from a re-analysis of the deposited data

Results flagged for a closer look

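In 9 of 22 sets of B6B6 mice, 1 mouse stood apart from the other 4 by the 95% limit of Dixon's test. That limit assumes normal values, and some of the sets share cells, so the count cannot be set against a rate by chance. Since many sets hold zeros in the other mice, 1 UMI can be enough for this. B6B6 mouse 2 stood high for Cxcl10 in whole grafts (14.6 CPM), in alveolar macrophages (48.0 CPM), and in monocytes (28.1 CPM), and for Cxcl9 in monocytes (6.25 CPM). Of the 42 Cxcl10 UMIs of this mouse, 1 was in a cell whose barcode was shared with another library, against 19 of its 43 Cxcl9 UMIs. B6B6 mouse 3 stood high for Cxcl10 in structural cells (1.75 CPM, 2 UMIs), for Cxcl10 in structural cluster 0 (5.43 CPM, the same 2 UMIs), and for Cxcr3 in cells labelled leukocyte (11.7 CPM, 3 UMIs). B6B6 mouse 4 stood high for Cxcl9 in structural cells (3.68 CPM, 7 UMIs) and in structural cluster 1 (8.77 CPM, 6 of these UMIs). The cause of these values was not tested.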

How the results depend on the processing

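The direction of HLAB6 against B6B6 was kept for the 10 edgeR results under each alternative that could be fitted, except Cxcr3 in myeloid cells, which was -0.17 without HLAB6 mouse 1 (range without 1 mouse -0.17 to 0.98). Without 1 mouse, the log2 fold change of Cxcl9 was 3.25 to 7.55 in structural cells, 1.80 to 3.53 in alveolar macrophages, 2.10 to 4.15 in whole grafts, and 1.74 to 3.20 in myeloid cells, that of Cxcl10 in whole grafts was 1.21 to 2.59, and that of Cxcr3 was 0.72 to 1.12 in T cells and 0.78 to 1.13 in whole grafts. Cxcr3 in B cells was 2.25 to 2.73 in the 3 of 8 such fits in which it kept enough counts (adjusted p = 0.00760 without HLAB6 mouse 3) and could not be fitted in the others. Cxcl9 in myeloid cells was fitted in 7 of 8, and Cxcr3 in B cell cluster 1, with 2 mice per group, in none. The highest values for structural Cxcl9 set HLAB6 mice against B6B6 mice at 0, so they depend on edgeR's prior count and are no measure of size. With 1 mouse fewer, the smallest p of the exact permutation test is 0.0571 or 0.0952, so no such result could pass. The differences in CPM were then 9.19 to 19.3 for Cxcl10 in structural cells, 11.9 to 25.9 in myeloid cells, and 16.1 to 34.1 in monocytes, and 10.8 to 48.8 for Cxcl9 in monocytes.

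Calls appeared that the chosen settings did not give. With no filter on low counts, Cxcl9 in alveolar macrophages was at 2.61 (adjusted p = 0.00622), Cxcl9 in myeloid cells at 2.86 (5.88e-06), and Cxcr3 in B cells at 2.34 (9.83e-07). With the linked libraries as a block, Cxcl9 passed in whole grafts at 3.89 (0.0345), in alveolar macrophages at 3.41 (0.00208), and in myeloid cells at 3.31 (0.0442), and Cxcr3 in B cells at 2.60 (0.0399). That block sets the linked libraries against all others, which were not linked to each other. Without cells of shared barcodes, Cxcl9 passed in alveolar macrophages at 3.23 and was 34.7 CPM higher in monocytes. Without B6B6 mouse 2, the adjusted p of Cxcl9 in alveolar macrophages was 0.0405. By DESeq2, structural Cxcl9 stood at 4.02 (adjusted p = 0.002) and Cxcl9 in alveolar macrophages at 2.36 (0.339). The cause of these shifts was not tested.

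The groups share replicate numbers 1 to 3 in the sample titles and the table of cells; names of single cells number HLAB6 mice 1, 2, and 3 as 2, 3, and 5, and what follows rests on the titles. Same-numbered mice correlated at 0.14, 0.413, and 0.0623 in their deviations from the group means, and 1 of the 3 HLAB6 mice correlated best with its own number, so the numbers were not taken to pair the mice. With the replicate block, structural Cxcl9 was at 8.07 (adjusted p = 0.0654, 6 mice) and Cxcl9 in alveolar macrophages at 1.57 (adjusted p = 0.0472).

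Genes past the threshold numbered 0 in whole grafts (92 with the linked block, 7 with the replicate block, 119 by DESeq2), 49 in structural cells (130 with no filter, 16 with the replicate block, 94 by DESeq2, 10 to 71 without 1 mouse), 5 in T cells (61, 30, and 37 in the same order, 39 with the linked block, 0 to 24 without 1 mouse), and 712 in alveolar macrophages (1083 with no filter, 253 with the replicate block, 1253 with the linked block, 180 to 829 without 1 mouse). They numbered 7 in B cells (73, 20, and 2 in that order, 0 to 16 without 1 mouse), 0 in myeloid cells (153, 30, and 25 in that order, 15 with the linked block, 0 to 27 without 1 mouse), and 0 in B cell cluster 1 (5 without doublets, 3 by DESeq2).

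Shares without thinning were 7.74% (Cxcl9, alveolar macrophages), 0.943% (Cxcl9, structural cells), 1.58% (Cxcl10, monocytes), 0.744% (Cxcl10, structural cells), 18.9% (Cxcr3, T cells), and 3.15% (Cxcr3, B cells), and at 1000 UMIs 14.1% of T cells and 1.76% of B cells held Cxcr3. Mast cells led Cxcl10 when mice were pooled (35.3 CPM) and without shared barcodes (17.9 CPM), and in 4 of the 8 orders without 1 mouse (leading level 17.1 to 25.6 CPM). The leading level of Cxcl9 was 34.9 to 59.5 CPM without 1 mouse, with myeloid cells first without HLAB6 mouse 3, and that of Cxcr3 was 130 to 164 CPM, always in T cells. On log2(CPM + 1), the effect on Cxcl9 in structural cells less that in macrophages turned to 0.59, and that on Cxcl10 in structural cells less that in monocytes to 0.53 from -0.21. Small differences turned sign: Cxcr3 in structural cells (0.58 CPM, -0.506 to 1.39 without 1 mouse, -4.08 without clusters 4, 6, and 10), Cxcl10 in T cells (-1.31 CPM, -2.14 to 0.132), and Cxcl10 in alveolar macrophages (-1.09 CPM, -4.32 to 8.51). Depth limits Cxcl10 and the single clusters, many of which hold few UMIs of a ligand.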
